A study of Penicillium oxalicum with 6 samples.

Results

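Across 6 RNA-seq libraries of the cellulose-degrading fungus Penicillium oxalicum, 174 of 9834 gene IDs held levels that separated the libraries along a line that cut through both strains. They were chosen by their FPKM, a gene's fragments per kilobase of its length for a fixed number of mapped fragments. A gene was taken when its mean over the 6 libraries was at least 5 FPKM and its lowest value in MuPOX06509 library F and Ku70 libraries F and T was at least 1.3 times its highest value in MuPOX06509 libraries S and T and Ku70 library S, or the reverse. The search left out 480 IDs in 6 ranges of ID numbers and then the 100 genes most abundant in the Ku70 mutant; 6677 genes met the level and were eligible. Of the 174 members, 129 were higher in MuPOX06509 F, Ku70 F and Ku70 T, and 45 were higher in MuPOX06509 S, MuPOX06509 T and Ku70 S. Because the values themselves set this line, the separation of the libraries is given as a description, with no test.

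MuPOX06509 is labelled a POX06509 mutant and is a deletion mutant by the title of the series; the strain it was set against is labelled a Ku70 mutant. Each strain had 3 libraries, told apart by the letters F, S and T. All came from mycelium of 1 g moved into medium with Avicel, a microcrystalline cellulose given as 1% in the titles, and shaken for 24 h at 28 °C. The growth text of every library names spores of the Ku70 mutant, and the labels state neither whether the deletion was made in that strain nor whether each library had a culture of its own. Any p-value here rests on library-to-library spread, which may be technical.

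Fungi such as P. oxalicum digest plant cell walls with secreted cellulases and xylanases, whose genes are switched on by cellulose and off by easily used sugars through transcription factors. Ku70 is a subunit of the DNA end-binding complex of non-homologous end joining; fungal strains without it take up deletion cassettes at the right locus more often and serve as hosts for gene deletion. The sources used here pair none of the POX IDs with a product. The members are therefore described by ID, level and a length implied by count and FPKM, and no function is given to any.

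Total expected counts were 14605326 to 15219424 per library, and 9249 to 9398 genes had at least 1 count. POX06509, the deleted gene and no member, had counts of 0, 0 and 1 in the MuPOX06509 libraries, against 1405, 2580 and 1851 in the Ku70 libraries. Libraries S and T of the deletion mutant lay closest together among libraries of one strain, with a chi-square over degrees of freedom of 14.5. The other 5 pairs of libraries within a strain gave 38.0 to 76.9, so every pair differed by more than sampling noise.

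Among the 129 genes higher in MuPOX06509 F, Ku70 F and Ku70 T, the widest separation belonged to POX07913. It had 298, 135 and 123 FPKM in MuPOX06509 libraries F, S and T, against 342, 153 and 365 FPKM in Ku70 libraries F, S and T. The lowest of the 3 high libraries was 1.94 times the highest of the 3 low ones. By the rule, libraries of both strains stood on either side of the gap, at matched growth time. POX08803 had 159, 91.2 and 81.0 FPKM in MuPOX06509 F, S and T, against 242, 90.7 and 184 FPKM in Ku70 F, S and T. POX02656 had 55.0, 31.4 and 27.4 FPKM in MuPOX06509 F, S and T, against 65.2, 31.9 and 56.2 FPKM in Ku70 F, S and T. For both genes Ku70 S was close in level to the deletion libraries S and T, on whose side the rule placed it. POX04454 had 38.5, 18.5 and 20.5 FPKM in MuPOX06509 F, S and T, against 42.0, 19.6 and 34.5 FPKM in Ku70 F, S and T. POX06622, the gene with the second widest gap of 1.77-fold, had 14.1, 4.35 and 5.65 FPKM in MuPOX06509 F, S and T, against 11.96, 6.74 and 14.1 FPKM in Ku70 F, S and T. Its values rested on 51, 16 and 21 counts in the deletion libraries and 45, 25 and 53 counts in the Ku70 libraries, and are the least precise of these 5 genes.

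The most abundant of the 129 genes was POX03758, with 1876, 1043 and 998 FPKM in MuPOX06509 F, S and T, against 1799, 1217 and 1766 FPKM in Ku70 F, S and T. It alone held 10.2% to 12.4% of the counts of the 129 genes in a library. POX08265 had 582, 443 and 408 FPKM in MuPOX06509 F, S and T, against 919, 422 and 794 FPKM in Ku70 F, S and T. Here MuPOX06509 F stood between the high Ku70 libraries and the low libraries rather than among the high ones. POX08486 had 701, 415 and 409.7 FPKM in MuPOX06509 F, S and T, against 797, 476 and 662 FPKM in Ku70 F, S and T. POX01491 had 599, 459 and 404 FPKM in MuPOX06509 F, S and T, against 779, 449 and 645 FPKM in Ku70 F, S and T. POX02531 had 633, 419.6 and 430.2 FPKM in MuPOX06509 F, S and T, against 663, 449 and 624 FPKM in Ku70 F, S and T. The separation of the abundant genes was 1.3- to 1.45-fold. It was bound to be narrower than that of the 5 genes above, which were named for the widest gaps. The abundant genes had 970 or more counts in every library, which made counting error small.

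**Figure D1:**
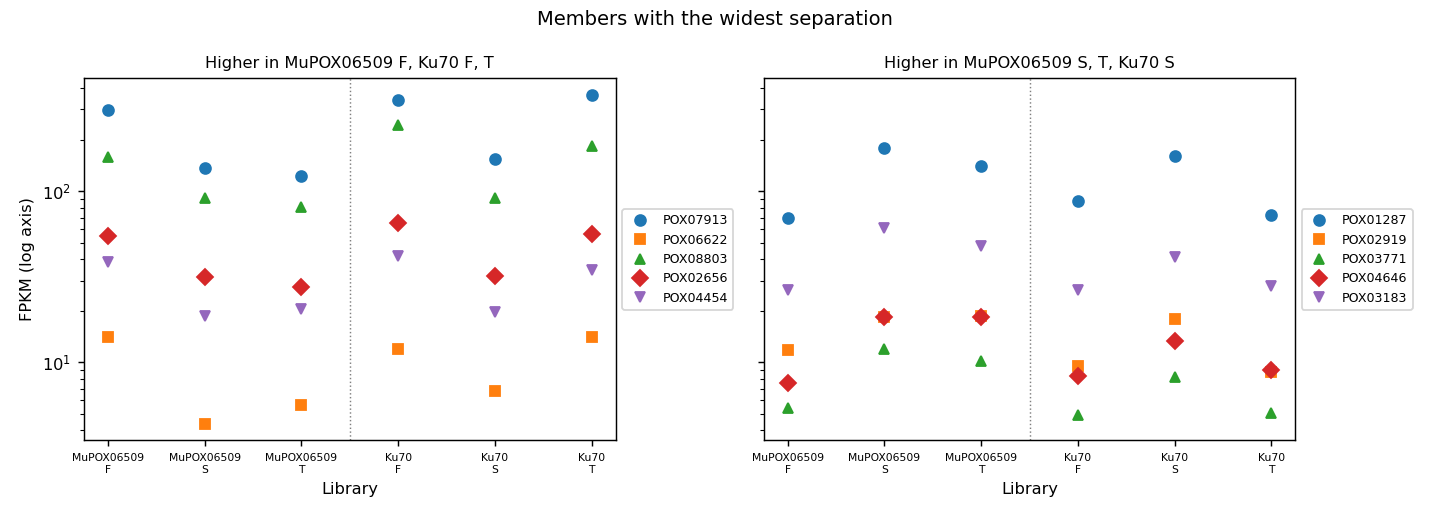
FPKM (log axis) of the 5 members of each direction with the widest separation, one marker per gene and library, MuPOX06509 libraries left of the dotted line and Ku70 libraries right of it. In the left panel MuPOX06509 F, Ku70 F and Ku70 T stand above the other 3 libraries for every gene, by 1.94-fold for POX07913, and in the right panel they stand below them.

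Among the 45 genes higher in MuPOX06509 S, MuPOX06509 T and Ku70 S, POX01287 had the widest separation, 1.62-fold. Its level was 69.5, 178 and 141 FPKM in MuPOX06509 F, S and T, against 87.0, 161 and 72.3 FPKM in Ku70 F, S and T. POX02919 had 11.8, 18.5 and 18.7 FPKM in MuPOX06509 F, S and T, against 9.54, 17.8 and 8.72 FPKM in Ku70 F, S and T. In both genes Ku70 S was close to the deletion libraries S and T. POX03771 had 5.43, 11.9 and 10.1 FPKM in MuPOX06509 F, S and T, against 4.94, 8.15 and 5.03 FPKM in Ku70 F, S and T. POX04646 had 7.54, 18.4 and 18.5 FPKM in MuPOX06509 F, S and T, against 8.32, 13.4 and 9.0 FPKM in Ku70 F, S and T. POX03183 had 26.3, 61.0 and 47.5 FPKM in MuPOX06509 F, S and T, against 26.4, 41.3 and 27.9 FPKM in Ku70 F, S and T. For these 3 genes Ku70 S stood between the high deletion libraries and the 3 low libraries.

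A pair of genes, POX04189 and POX00607, carried 55.3% to 57.2% of the counts of the 45 in every library. POX04189 had 991, 1644 and 1759 FPKM in MuPOX06509 F, S and T, against 868, 1368 and 908 FPKM in Ku70 F, S and T. POX00607 had 854, 1476 and 1472 FPKM in MuPOX06509 F, S and T, against 935, 1376 and 878 FPKM in Ku70 F, S and T. The summed counts of the 45 genes therefore follow these 2, at 0.829%, 1.40% and 1.42% of all counts in MuPOX06509 F, S and T, against 0.788%, 1.199% and 0.781% in Ku70 F, S and T. The other abundant members of this direction were lower. POX04232 had 262, 353 and 373 FPKM in MuPOX06509 F, S and T, against 189.9, 346 and 211 FPKM in Ku70 F, S and T. POX01449 had 159, 241 and 215 FPKM in MuPOX06509 F, S and T, against 149, 209 and 144 FPKM in Ku70 F, S and T, and POX00538 had 106, 183 and 193 FPKM in MuPOX06509 F, S and T, against 120.4, 158 and 113 FPKM in Ku70 F, S and T. The 129 genes of the other direction summed to 0.720%, 0.444% and 0.433% of all counts in MuPOX06509 F, S and T, against 0.844%, 0.478% and 0.766% in Ku70 F, S and T. FPKM is relative to the other genes of a library, and bulk RNA does not separate fewer cells that express a gene from less RNA of it per cell.

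At the edge of the rule, POX05485 and POX03397 came in at 1.3007- and 1.303-fold in the direction of the 129 genes, and POX06333 and POX00792 stayed out at 1.2993- and 1.2987-fold. POX05485 had 22.6, 16.4 and 15.5 FPKM in MuPOX06509 F, S and T, against 30.4, 17.4 and 31.7 FPKM in Ku70 F, S and T. POX06333 had 32.4, 23.4 and 22.5 FPKM in MuPOX06509 F, S and T, against 32.5, 24.7 and 32.1 FPKM in Ku70 F, S and T. In the direction of the 45 genes, POX01907 and POX06163 came in at 1.3001- and 1.304-fold, and POX00856 and POX04946 stayed out at 1.299- and 1.295-fold. POX01907 had 11.1, 17.6 and 19.95 FPKM in MuPOX06509 F, S and T, against 9.60, 14.5 and 11.1 FPKM in Ku70 F, S and T. POX00856 had 37.4, 49.5 and 49.8 FPKM in MuPOX06509 F, S and T, against 30.6, 48.6 and 31.4 FPKM in Ku70 F, S and T. The pattern did not stop at the threshold: at 1.2-fold in place of 1.3-fold the rule took 291 and 123 genes, and at 1.5-fold 26 and 3.

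**Figure D2:**
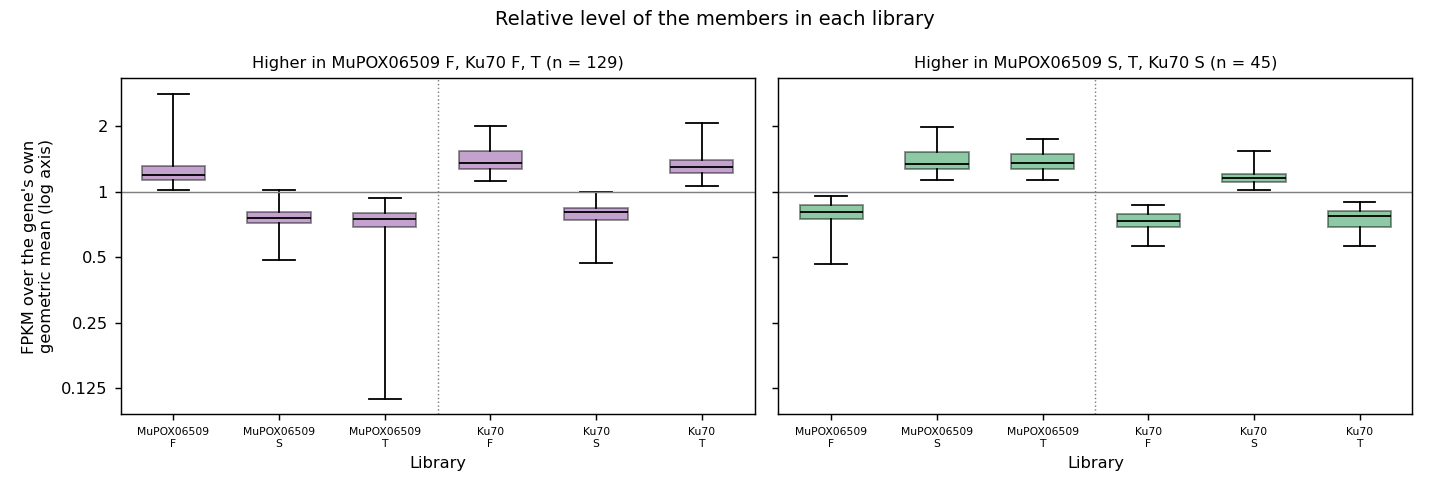
FPKM of each member divided by its own geometric mean over the 6 libraries (log axis). Boxes give the quartiles and the median of the 129 genes (left panel) and the 45 genes (right panel), whiskers the lowest and highest gene; the left panel has medians of 1.202, 0.760 and 0.748 in MuPOX06509 F, S and T and of 1.36, 0.809 and 1.31 in Ku70 F, S and T.

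The libraries differed in how far they stood from the middle. Relative to each gene's own geometric mean, the 129 genes had a median of 1.202 in MuPOX06509 F, against 1.36 and 1.31 in Ku70 F and T. In the 3 low libraries the medians were 0.760 and 0.748 in MuPOX06509 S and T, against 0.809 in Ku70 S. For the 45 genes the medians were 1.34 and 1.36 in MuPOX06509 S and T, against 1.16 in Ku70 S. Their low libraries had medians of 0.813 in MuPOX06509 F, against 0.734 and 0.776 in Ku70 F and T. In both directions MuPOX06509 F stood alone for its strain on its side of the line, and so did Ku70 S. Each lay nearer to the middle than the 2 libraries of the other strain beside it. The same values chose the members, so this order may follow in part from the choice, and it was not tested.

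The rule held the fold between libraries of one strain to at least 1.3-fold, in the same direction in both strains. Medians beyond that level in both strains therefore follow from the choice of members. For the 129 genes, library F over the mean of S and T in MuPOX06509 had a median of 1.59 (quartiles 1.46 and 1.78), and the mean of F and T over S in Ku70 had a median of 1.70 (quartiles 1.53 and 1.89). For the 45 genes the same medians were 0.606 in MuPOX06509 and 0.658 in Ku70. A 2-fold difference in both strains was reached by 4 members, POX07913, POX06926, POX08672 and POX01287, named after their values were seen. Taken without regard to direction, it was reached by 10 of the 6677 eligible genes, 6 of them no members. POX08672 had 336, 159 and 166 FPKM in MuPOX06509 F, S and T, against 456, 185 and 302 FPKM in Ku70 F, S and T. The largest fold within the deletion mutant, 5.09 in POX05613, rested on 25, 9 and 1 counts in MuPOX06509 F, S and T. Of the 174 members, 17 had fewer than 50 counts in their lowest library, and 148 had at least 100. Of the 6677 eligible genes, 279 had fewer than 50 and 6042 at least 100, so the sparse share was larger among the members.

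**Figure D3:**
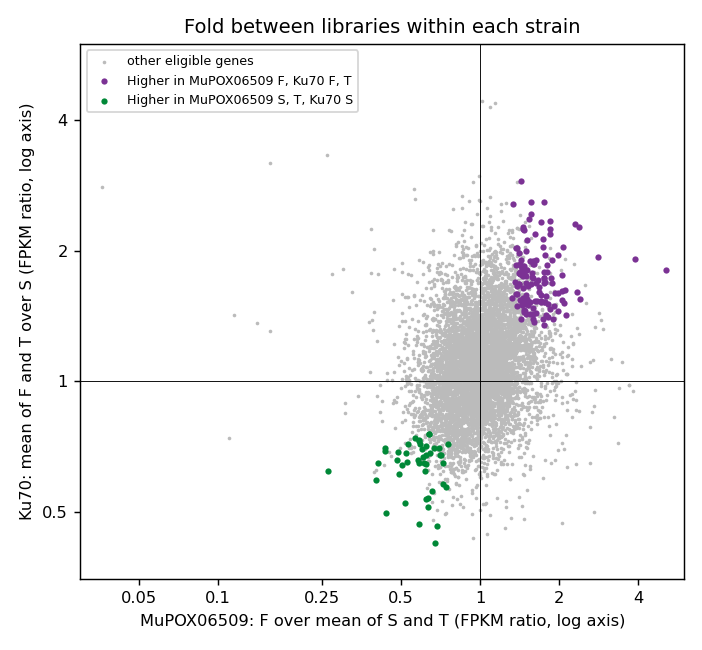
Each point is an eligible gene; x is MuPOX06509 library F over the mean of libraries S and T, y is the mean of Ku70 libraries F and T over library S (FPKM ratios, log axes). The 129 members in purple lie above 1 on both axes and the 45 members in green below 1 on both, as the rule requires.

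Libraries of one strain that fell on the same side of the line were not compared by the rule, and there the members had medians close to those of other genes. The median fold between MuPOX06509 S and T, taken without regard to direction, was 1.08 for the 129 genes, 1.07 for the 45 genes and 1.08 over all eligible genes. Between Ku70 F and T it was 1.11 for the 129 genes, 1.08 for the 45 and 1.12 over all eligible genes. Ku70 F was above Ku70 T in 82 of the 129 genes (63.6%) and in 18 of the 45 (40.0%), against 41.0% of eligible genes.

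The members differed from other genes in length. The length that links a gene's count to its FPKM, here called effective length, was the same in every library to within 0.5% for genes of at least 200 counts, so dividing by it does not alter a ratio between libraries. The 129 genes were short, with a median effective length of 507 bp (quartiles 332 and 877), and the 45 genes were long, with a median of 2916 bp (quartiles 2105 and 5091). All 6677 eligible genes had a median of 1290.2 bp (quartiles 802 and 1955). Of the 129 genes, 103 (79.8%) lay under 1000 bp, against 35.3% of eligible genes, and none lay over 2000 bp, where 23.7% of eligible genes were. Of the 45 genes, 35 (77.8%) lay over 2000 bp and 12 (26.7%) over 5000 bp, against 1.45% of eligible genes over 5000 bp. Length was no part of the rule, and these shares are a description without a test. Effective length is derived from count and FPKM and may differ from a gene's annotated length, which was not at hand.

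Read the other way, the share of genes that were members differed between classes of length. Of 462 eligible genes of 300 to 500 bp, 41 (8.87%) belonged to the 129 and 2 to the 45. Of 1569 genes of 1000 to 1500 bp, 21 (1.34%) belonged to the 129 and 2 to the 45. Of 97 genes over 5000 bp, none belonged to the 129 and 12 (12.4%) to the 45. POX03771, at 20340.3 bp, was the longest of all eligible genes. The 2 most abundant genes of the 45, POX04189 at 2371 bp and POX00607 at 2606 bp, were long as well, whereas POX03758 of the 129 had 476 bp.

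**Figure D4:**
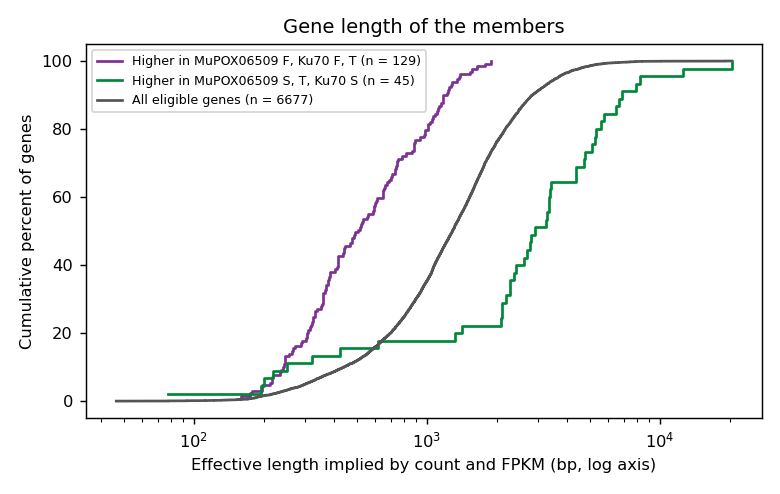
Cumulative percent of genes by effective length (log axis) for the 129 members higher in MuPOX06509 F, Ku70 F and Ku70 T, the 45 members higher in MuPOX06509 S, MuPOX06509 T and Ku70 S, and all 6677 eligible genes. The 129 lie to the left of all eligible genes, with a median of 507 bp, and most of the 45 lie to the right, with 2 genes between the 8 under 1000 bp and the 35 over 2000 bp.

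The 45 genes were not uniform in length. Below 1000 bp lay 8 of them, 2 more lay under 1500 bp and the other 35 over 2000 bp. The short ones included POX01287 at 617 bp, which had the widest separation of this direction, and POX04232 at 219 bp. POX04503, named after its values were seen, had the shortest effective length of the 45, 77.8 bp. It had 40.3, 60.4 and 77.7 FPKM in MuPOX06509 F, S and T, against 41.3, 82.1 and 35.5 FPKM in Ku70 F, S and T. These values rested on 42 to 96 counts. POX01857, at 194 bp and also named after the fact, had 18.7, 26.0 and 29.5 FPKM in MuPOX06509 F, S and T, against 11.5, 30.9 and 14.6 FPKM in Ku70 F, S and T. Its Ku70 fold of 0.422 was the lowest of any member. Among the 129 genes, 5 were longer than 1500 bp, up to POX01106 at 1891 bp.

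Effective length also went with the level of all eligible genes in each library, members or not. Across the 6677 genes, the level relative to a gene's own mean correlated with length at a Spearman rho of -0.383, 0.334 and 0.441 in MuPOX06509 F, S and T, against -0.217, 0.071 and -0.127 in Ku70 F, S and T. Genes share their library here and are not independent, so these values are descriptions. MuPOX06509 S and T, where the 45 mostly long genes were high, had positive values, and the 3 libraries where the 129 short genes were high had negative ones. Ku70 S, which stood with MuPOX06509 S and T for the members, had a value near 0. Genes over 5000 bp had medians of 0.791, 1.25 and 1.26 relative to their own mean in MuPOX06509 F, S and T, against 0.917, 0.966 and 0.883 in Ku70 F, S and T. Genes of 300 to 500 bp had medians of 1.13, 0.912 and 0.862 in MuPOX06509 F, S and T, against 1.09, 0.947 and 1.08 in Ku70 F, S and T. The share of all counts on genes under 1000 bp was 47.4%, 41.3% and 40.8% in MuPOX06509 F, S and T, against 45.2%, 43.6% and 43.5% in Ku70 F, S and T.

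**Figure D5:**
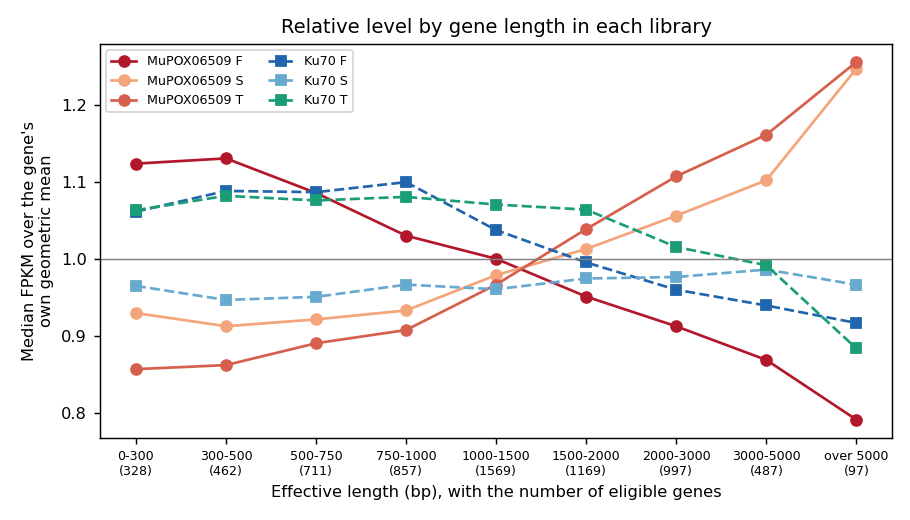
Median FPKM relative to each gene's own geometric mean in 9 classes of effective length, for all 6677 eligible genes, one line per library (MuPOX06509 solid, Ku70 dashed). MuPOX06509 F falls from 1.12 in the shortest class to 0.791 in the longest, MuPOX06509 S and T rise to 1.25 and 1.26, and Ku70 S stays between 0.947 and 0.986.

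When each library's median deviation in each of the 9 length classes was taken away, an alternative chosen after the data were seen, the rule took 44 genes in the direction of the 129 and 42 in the direction of the 45. Only 35 of these 44 and 14 of these 42 were among the original members. Thus 35 of the original 129 and 14 of the original 45 were still taken, and the rest were not. Their median lengths were then 1134 bp and 421 bp. The fold was also taken on TMM-scaled CPM (counts scaled to a library size adjusted by a TMM factor) in place of FPKM. This leaves length untouched and changes the scaling between libraries. The rule then took 94 and 79 genes with median lengths of 514 and 2798 bp. Of these, 93 of the 94 and 45 of the 79 were among the original members. Their median lengths thus stayed near those of the original members, while the number in each direction depended on the scaling.

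The comparison the study was built for, MuPOX06509 against Ku70, called none of the members. By edgeR's quasi-likelihood test with Benjamini-Hochberg adjustment at 0.05, 0 of 129 and 0 of 45 members were called. The same test called 12.6% of all 8336 tested genes (5.33% higher and 7.27% lower in MuPOX06509). Among the eligible genes tested it called 11.2% (3.75% higher and 7.47% lower). The smallest edgeR adjusted p of any member was 0.0973, and 13 of 174 had an unadjusted p under 0.05, against 29.3% of all tested genes; DESeq2 called 5 members (2.87%, against 15.4% of eligible genes) and limma on log2(FPKM + 1) called none (against 9.73% of eligible genes). Without MuPOX06509 F edgeR called 17 members (9.77%, against 12.5% of eligible genes), and without Ku70 S it called 34 (19.5%, against 26.3%). Without each of the other 4 libraries it called 0 members, against 5.25% to 7.42% of eligible genes. The rule bears on these counts: by placing libraries of each strain on both sides it picks genes with a wide spread within strains, so a low share of calls follows in part from the choice.

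The direction of the strain difference is also tied to the choice, since 2 of the 3 high libraries of the 129 genes are of Ku70. The fitted log2 fold change was negative in 128 of the 129 genes, with a median of -0.30, and positive in all of the 45, with a median of 0.42; over all eligible genes the median was 0.02. POX07913 averaged 185 ± 97.5 FPKM in MuPOX06509 and 287 ± 116 FPKM in Ku70 (SD, n = 3 each), with a log2 fold change of -0.58 ± 0.36 (SE) and an edgeR adjusted p of 0.308. POX04189 averaged 1465 ± 414 FPKM in MuPOX06509 and 1048 ± 278 FPKM in Ku70 (SD, n = 3 each), with a log2 fold change of 0.50 ± 0.27 (SE) and an edgeR adjusted p of 0.237. For both, the difference between strains was no more than about the larger SD. The most extreme members were POX04984, at a log2 fold change of -0.86 ± 0.32 (SE, edgeR adjusted p = 0.102), and POX08716, at 0.92 ± 0.35 (SE, edgeR adjusted p = 0.105), both named after their values were seen. At the other end, POX01106 and POX04257 had log2 fold changes of -0.01 ± 0.30 and 0.04 ± 0.36 (SE). POX01106 had 8.85, 4.19 and 4.11 FPKM in MuPOX06509 F, S and T, against 6.25, 4.62 and 6.86 FPKM in Ku70 F, S and T, so its strain means, 5.72 and 5.91 FPKM, were close while MuPOX06509 F was 2.13 times the mean of S and T.

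Within one side of the line the rule set no order between the strains. It did use the lowest of the high libraries and the highest of the low ones. The member counts below are therefore not free of the choice, whereas the eligible genes were not chosen by it. On the high side of the 129 genes, MuPOX06509 F was below both Ku70 F and Ku70 T in 76 genes (58.9%, against 47.9% of eligible genes) and above both in 22 (17.1%, against 36.7%). On their low side, MuPOX06509 S and T were both below Ku70 S in 78 genes (60.5%, against 34.9% of eligible genes) and both above it in 26 (20.2%, against 48.2%). On the high side of the 45 genes, MuPOX06509 S and T were both above Ku70 S in 36 (80.0%, against 48.2% of eligible genes). MuPOX06509 F was above both Ku70 F and T in 23 of the 45 (51.1%, against 36.7% of eligible genes). These counts have a single library on one hand and were not tested.

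Adjacent ID numbers were counted among the members only, after 480 IDs in 6 ranges had been left out, so no share of other genes stands beside them. The 129 genes held 3 pairs with consecutive numbers, starting at POX03757, POX03981 and POX04820, and no run of 3; the 45 genes held no such pair. The median mean FPKM was 42.0 for the 129 genes and 18.6 for the 45, above and below the 33.5 of all eligible genes. Expected counts that missed a whole number by more than 1e-06 in at least 1 library occurred in 5 of the 129 (3.88%) and 6 of the 45 (13.3%), against 3.92% of eligible genes. The departure was at most 0.03 counts in these members except POX07929, where it reached 0.44 counts.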

How the data were processed

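The authors deposited an expected count (an estimated count that need not be whole) and an FPKM for each gene in each library, per the file headers. DESeq2, BWA 0.7.10-r789, Bowtie2 2.1.0 and RSEM 1.2.12 are named with no role or order, per the submitters' processing notes; not given in the sources used here are the genome build, the annotation and the strand setting; overlapping and antisense genes are therefore not separable. None of the 9834 IDs matched the reference table of 9964 genes of assembly ASM172317v3.

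The member rule was applied to the deposited FPKM. Effective length was the expected count divided by FPKM and total count. Ratios to a gene's geometric mean used FPKM + 0.01. Each expected count was first rounded to a whole number, and the strain test was run in R 4.3.3 by edgeR 4.0.16 (TMM, filterByExpr with a minimum count of 10, quasi-likelihood F test, strain as the only term, 6 libraries); a standard error is the log2 fold change over the square root of F. The fit was tested on simulated data. Alternatives used DESeq2 1.42.0, limma 3.58.1 on log2(FPKM + 1) and other settings. Precision is limited by depth: 3 counts, the floor for a gene at 0, were 0.197 to 0.205 CPM. This covers counting error only. Other steps used Python 3.11.15, numpy 2.4.6, pandas 2.3.3 and scipy 1.17.1.

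Genes named are POX06509; in each direction the 5 members with the widest gap, the 5 most abundant, the 2 just inside and the 2 genes just outside the threshold; up to 2 called members each way (there were none); and the 2 with a fold change nearest 0. Members and lists were chosen with earlier results of these data known. Planned lists by function could not be used, since no product names were paired with the IDs.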

Additional observations from a re-analysis of the deposited data

How the results depend on the processing

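The number of members depended on the fold and on single libraries. The 129 genes became 291 at a threshold of 1.2-fold, 26 at 1.5-fold and 44 once each library's length trend was taken away; the 45 became 123 and 3 at these thresholds and 79 on TMM-scaled CPM. Leaving out 1 library, which loosens the rule by construction, gave 158 to 839 and 47 to 306 genes, the most without MuPOX06509 F; without Ku70 S there were 323 and 270 and without Ku70 T 192 and 85. A level of 2 or 10 FPKM, or leaving no gene out, kept both counts within 1.5 times. Calls between strains also rested on libraries: 17 members were called without MuPOX06509 F (8 lower, 9 higher) and 34 without Ku70 S (17 lower, 17 higher), 0 to 34 over the 6 fits, where 12.5% and 26.3% of eligible genes were called. Of the 129 genes, 0 to 17 were called lower, and of the 45, 0 to 17 higher. DESeq2 called 5, 3 of the 129 lower and 2 of the 45 higher, against 15.4% of eligible genes.

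The letters pair the libraries poorly: the correlation of deviations from the strain mean was 0.387 between the F libraries, 0.064 between the S and 0.0636 between the T libraries, and only the F libraries correlated best with each other. A replicate block by letter in edgeR gave 36 called members (20.7%, against 22.9% of eligible genes), 19 of the 129 lower and 17 of the 45 higher.

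Log2 fold changes of 4 named genes changed sign when 1 library was left out, none of them called: POX01106 ranged from -0.47 to 0.18, POX04257 from -0.29 to 0.27, POX01287 from -0.0074 to 0.76 and POX00792, just outside the rule, from -0.26 to 0.10. Of 434 alternative values of named genes, 404 kept direction and side of the threshold. Of the others, 11 changed direction and 19 kept direction but crossed the threshold to become called.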

Other observations

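The strain difference itself moved with effective length among all eligible genes, members or not, though not evenly. The median log2 fold change of MuPOX06509 against Ku70 was -0.01 for the 328 genes up to 300 bp, -0.06 for genes of 300 to 500 bp, 0.02 for genes of 1500 to 2000 bp, 0.13 for the 487 genes of 3000 to 5000 bp and 0.27 for the 97 genes over 5000 bp. The choice of members fixes their direction in part, and at the same length the 12 long members over 5000 bp had a median of 0.57, and the 41 members of 300 to 500 bp in the other direction had a median of -0.30. In the 97 genes over 5000 bp 3 were called higher and 1 lower, in the 487 genes of 3000 to 5000 bp 5 were called higher and 9 lower, and in the 857 genes of 750 to 1000 bp 30 were called higher and 108 lower, by edgeR with an adjusted p under 0.05. The part of length in these calls was not tested.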
